A study of Homo sapiens with 16 samples.

Results

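FOXA1, FOXA2, FOXA3, HHEX, HNF4A and PRDM1 encode transcription factors of the endoderm, the germ layer that forms the liver, pancreas and gut. They were chosen by gene symbol, and 5 of these 6 genes were read by a probe set that matches a single gene, among 18132 such genes on the array. HNF4A, a nuclear receptor of liver and gut, was not analysed here because no probe set named it in the probe annotation used. The RNA came from H1 cells, an established line of human embryonic stem cells (huESCs), on 16 Affymetrix PrimeView arrays in 8 groups of 2. Control cells carried an empty lentiviral vector and were collected undifferentiated at day 0 and during differentiation at days 3, 4 and 5. GATA6-depleted cells carried a lentiviral short hairpin RNA (shRNA) against GATA6 and were collected at days 3, 4 and 5. Rescue cells carried that shRNA and a doxycycline-inducible GATA6 cDNA that the shRNA does not recognise, and were collected at day 5. All differentiating cells received activin A at 50 ng/ml, for the first 2 days together with 10 ng/ml BMP4 and 20 ng/ml FGF2. Doxycycline was given to the rescue cells alone, at 60 ng/ml for 96 hours, and no depleted sample of day 0 and no control with doxycycline is among the arrays. Per the methods the lines were polyclonal. Transgene, doxycycline and cell line therefore cannot be told apart in the rescue group.

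FOXA1, FOXA2 and FOXA3 are forkhead factors, which open compact chromatin at liver and gut genes and are known as pioneer factors. FOXA2 marks definitive endoderm in culture. HHEX is a homeobox repressor of the anterior endoderm that is needed in the mouse for liver and thyroid to form. PRDM1, also called BLIMP1, is a zinc finger repressor that acts in mouse endoderm, in germ cell precursors and in plasma cells. GATA6 is a zinc finger factor that binds DNA at sites with the core GATA, and forkhead factors bind sites with the core TGTTT.

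The 250 bases before the RefSeq start site (GRCh38.p14) are shown for 2 genes with different courses in the results, HHEX, which was lower in depleted cells, at chr10:92689705-92689954 (plus strand) and FOXA1, which was high in rescue cells, at chr14:37595250-37595499 (minus strand). Capitals mark the motifs GATAA and TGTTT, read on both strands (TTATC and AAACA):
HHEX: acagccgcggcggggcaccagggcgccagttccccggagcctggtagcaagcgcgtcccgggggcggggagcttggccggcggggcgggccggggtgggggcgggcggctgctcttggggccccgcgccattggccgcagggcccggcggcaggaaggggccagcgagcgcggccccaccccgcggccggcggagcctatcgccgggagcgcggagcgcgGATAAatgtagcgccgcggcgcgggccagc
FOXA1: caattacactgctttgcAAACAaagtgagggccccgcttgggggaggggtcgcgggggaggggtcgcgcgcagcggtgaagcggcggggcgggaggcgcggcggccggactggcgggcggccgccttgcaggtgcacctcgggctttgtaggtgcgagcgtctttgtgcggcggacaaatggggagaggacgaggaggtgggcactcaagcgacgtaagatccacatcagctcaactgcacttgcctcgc
HHEX held 1 GATAA, 30 to 26 bases before the start, and FOXA1 held 1 AAACA, 233 to 229 bases before it. FOXA3 held neither motif, and FOXA2 was not searched because no promoter sequence of it was available. The first of the 2 PRDM1 promoters held 1 TGTTT and the second 2, and neither held GATAA. Over 27305 genes, 21.0% of promoter windows of this length held GATAA on either strand and 40.8% held TGTTT, so a match in one window is a description of its letters.

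Levels are log2 values from robust multi-array average (RMA), comparable between arrays for a probe set and not between genes. Differences are log2 with the standard error (SE) of limma's moderated test, and a call is an adjusted p under 0.05 (Benjamini-Hochberg, over the 18132 genes). GATA6, the targeted gene, read 1.72 and 1.86 at day 0 and between 11.44 and 11.60 on the 6 later control arrays. In depleted cells it read 9.76 and 9.90 at day 3, 7.92 and 6.62 at day 4 and 6.37 and 6.62 at day 5. Rescue cells read 8.43 and 8.31. At each day the depleted arrays lay below the control arrays, and the rescue arrays lay between the groups of day 5. Whether the probe set reads the transgene is not known. The paper reports that doxycycline gave overexpression of GATA6 mRNA in rescue endoderm. Its rescue cDNA escapes an shRNA aimed at the 3′ untranslated region. The array values are therefore not read as the total GATA6 of rescue cells. The lower quartile of an array's genes was 3.36 to 3.50 log2, and no fold is given for a group whose mean lay below it or within 1 log2 above it. The bacterial hybridisation control bioB was lowest in rescue cells (7.26 and 7.29), next at day 0 (7.66 and 7.74) and 8.39 or more in every remaining group, so a separate hybridisation cannot be told apart from the rescue or the day 0 group. Across genes the 2 rescue arrays differed less (SD 0.1045 log2) than the other pairs (0.1634 to 0.2449). The ACTB probe sets, read at the 3′ minus the 5′ end as a measure of RNA degradation, gave 2.19 log2 for replicate 2 of control day 3 and between 0.931 and 1.71 for the remaining arrays.

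**Figure D1:**
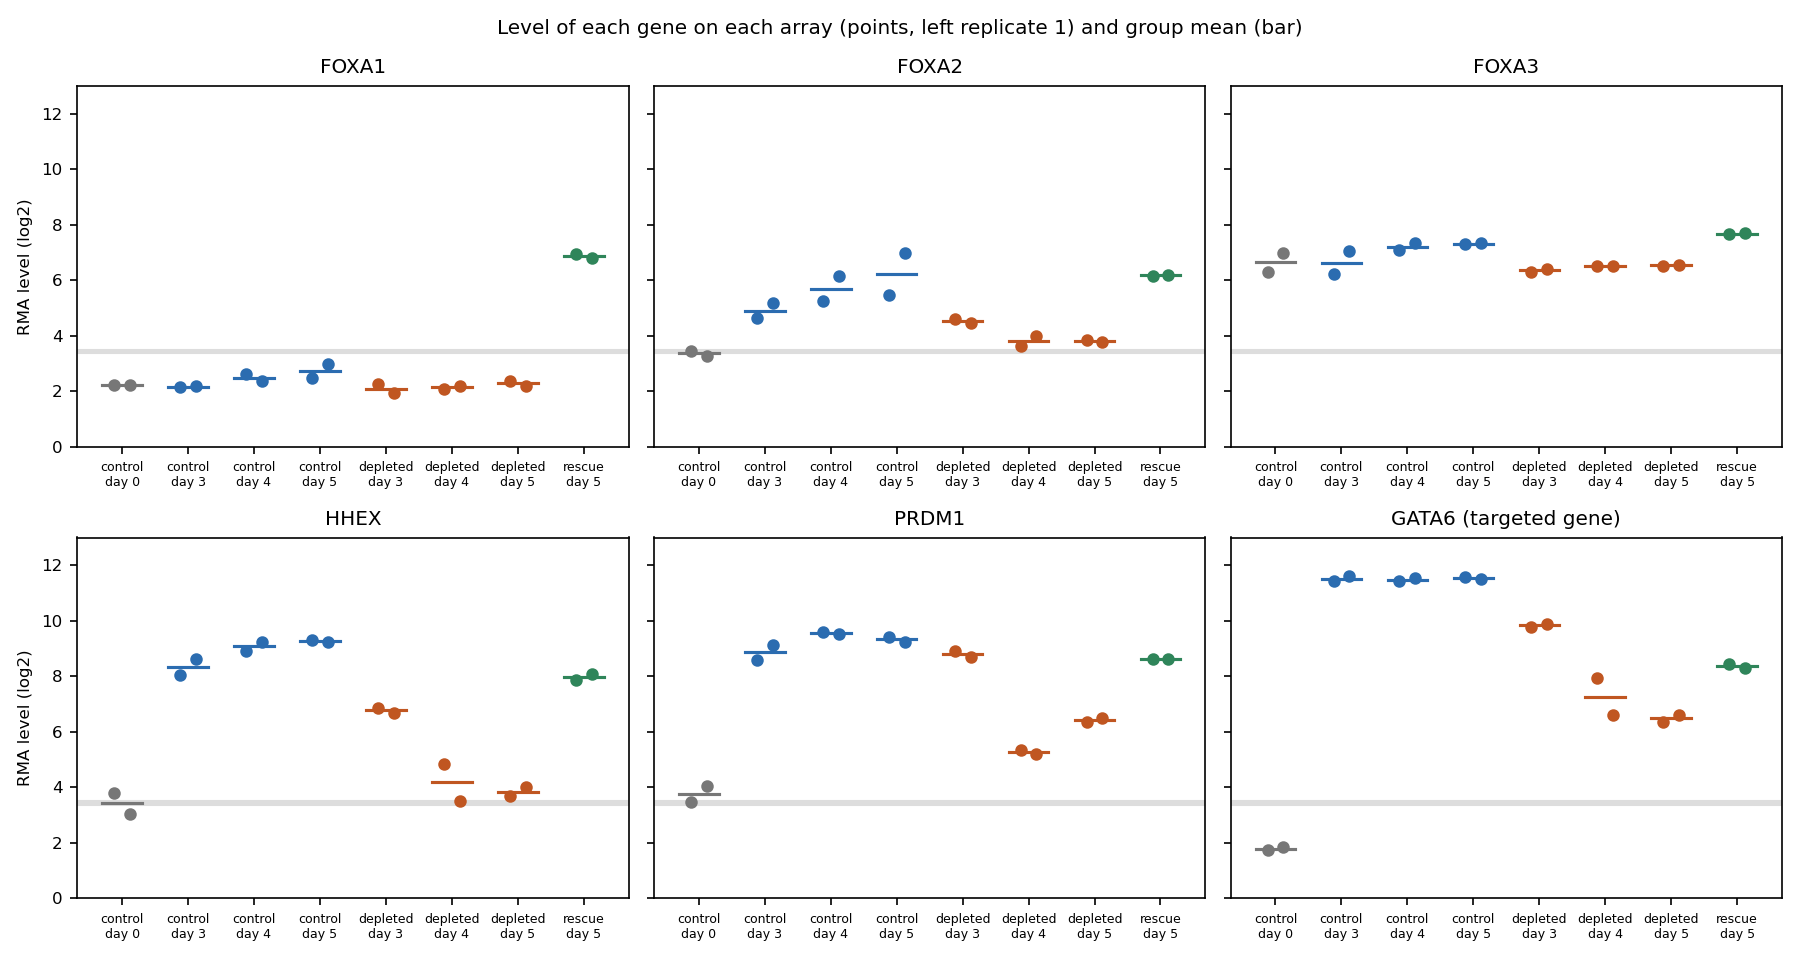
RMA level (log2, y axis) of the 5 genes and of GATA6 in the 8 groups (x axis). Points are single arrays, the short bar is the mean of 2, and the grey band (3.36 to 3.50) spans the lower quartiles of the arrays. FOXA1 leaves the low range in rescue cells alone (6.94 and 6.81), while HHEX and PRDM1 are high in control cells and lower in depleted cells at days 4 and 5.

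The control cells gave the course of each gene in normal differentiation. HHEX and PRDM1 were near the lower quartile at day 0 and high by day 3, FOXA2 climbed more slowly, and FOXA1 and FOXA3 changed little. HHEX read 3.81 and 3.03 at day 0, 8.03 and 8.64 at day 3, 8.91 and 9.25 at day 4 and 9.31 and 9.24 at day 5. PRDM1 read 3.47 and 4.06, then 8.58 and 9.14, 9.59 and 9.52, and 9.41 and 9.24 on the same days. Both genes were higher on all 6 later arrays than at day 0, and their steep part lay before day 3. FOXA2 read 3.46 and 3.27 at day 0, 4.63 and 5.18 at day 3, 5.26 and 6.14 at day 4 and 5.48 and 6.97 at day 5. Its replicates spread more than those of HHEX at days 4 and 5, and replicate 2 was the higher at days 3, 4 and 5. FOXA3 read 6.31 and 6.98 at day 0, 6.22 and 7.06 at day 3, 7.08 and 7.35 at day 4 and 7.29 and 7.35 at day 5. FOXA1 stayed between 2.15 and 2.99 on the 8 control arrays, below the lower quartile on each.

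From day 0 to day 3, 3 of the 5 genes were called, against 27.8% of all genes: FOXA2 rose by 1.54 ± 0.38 (adjusted p = 0.00849), HHEX by 4.91 ± 0.36 (adjusted p = 6.20e-07) and PRDM1 by 5.09 ± 0.20 (adjusted p = 2.97e-09). The FOXA2 call was lost without control day 0 replicate 2 (1.45) or control day 3 replicate 2 (1.27). Between days 3 and 4 none of the 5 was called by limma (3.13% of all genes were), although FOXA3 (0.58 ± 0.24) and PRDM1 (0.69 ± 0.20) had an unadjusted p under 0.05. Without control day 3 replicate 2 both passed, at 1.00 and 0.97. Between days 4 and 5 none of the 5 was called either, none had an unadjusted p under 0.05, and 0.237% of all genes were called. From day 3 to day 5, with 11.6% of all genes called, FOXA2 rose by 1.32 ± 0.38 (adjusted p = 0.0422) and FOXA1 by 0.56 ± 0.17 (adjusted p = 0.0475). The other probe set of FOXA1 turned the direction (−0.20 ± 0.14), and both group means of FOXA1 (2.73 and 2.16) lay below the lower quartile. Neither call was firm: both were lost without control day 3 replicate 1 or control day 5 replicate 2, and without the latter FOXA2 stood at 0.57 and FOXA1 at 0.30. The FOXA1 call was also lost without control day 3 replicate 2. Without that array FOXA3 and PRDM1 passed, at 1.11 and 0.75.

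Between day 0 and day 5 all 5 genes were called as higher, against 34% of all genes called in either direction. HHEX rose by 5.85 ± 0.36 (adjusted p = 9.41e-08), PRDM1 by 5.56 ± 0.20 (adjusted p = 1.35e-09) and FOXA2 by 2.86 ± 0.38 (adjusted p = 7.25e-05). The day 5 arrays of these genes lay above both day 0 arrays. FOXA3 rose by 0.68 ± 0.24 (adjusted p = 0.0454), a call lost without control day 0 replicate 1 (0.34) or either day 5 array (0.71 and 0.65). The FOXA1 difference of 0.49 ± 0.17 (adjusted p = 0.0381) was lost without either day 0 array or without control day 5 replicate 2 (0.23), and its other probe set gave −0.05 ± 0.14.

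The comparison of depleted with control cells asked how the level of each gene differed when GATA6 was depleted. At day 3, HHEX alone of the 5 was called, by day 4 it was joined by FOXA2, FOXA3 and PRDM1, and FOXA1 was not called at any day. HHEX read 6.85 and 6.69 in depleted cells at day 3, 4.85 and 3.51 at day 4 and 3.68 and 4.01 at day 5. Each of these 6 values lay below both control values of its day. PRDM1 read 8.92 and 8.69 at day 3, 5.34 and 5.20 at day 4 and 6.35 and 6.48 at day 5. Its 2 depleted arrays of day 3 lay within the control range of that day, and those of days 4 and 5 lay below it. FOXA2 read 4.62 and 4.48, then 3.64 and 4.00, and 3.84 and 3.78, so that the groups were separate, though at day 3 they nearly touched (4.62 against 4.63). FOXA3 read 6.30 and 6.41, then 6.51 and 6.51, and 6.53 and 6.54, below the control arrays from day 4. FOXA1 read between 1.93 and 2.37 on the 6 depleted arrays, below the lower quartile like the controls.

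At day 3, HHEX was 2.96-fold lower in depleted than in control cells (−1.57 ± 0.36, adjusted p = 0.0314), in a comparison that called 3.75% of all genes. The call was lost without control day 3 replicate 2 (−1.26) or either depleted array (−1.65 and −1.49), with adjusted p of 0.126 to 0.196. PRDM1 differed by −0.05 ± 0.20 with a 95% confidence interval of −0.48 to 0.38, so a fall of the size seen at later days lies outside the interval. FOXA2 (−0.36 ± 0.38), FOXA3 (−0.28 ± 0.24) and FOXA1 (−0.07 ± 0.17) did not pass. Compared with control day 0, depleted cells at day 3 had 3 of the 5 genes called, against 27.2% of all genes: PRDM1 was higher by 5.04 ± 0.20 (adjusted p = 3.14e-09), HHEX by 3.35 ± 0.36 (adjusted p = 1.49e-05) and FOXA2 by 1.18 ± 0.38 (adjusted p = 0.0357). The FOXA2 call was lost without any 1 of the 4 arrays (1.09 to 1.27).

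At day 4, 4 of the 5 genes were called, all lower, against 28.2% of all genes called in either direction. HHEX fell by 4.90 ± 0.36 (adjusted p = 9.14e-07), and PRDM1 was 19.5-fold lower (−4.28 ± 0.20, adjusted p = 3.76e-08). FOXA2 fell by 1.88 ± 0.38 (adjusted p = 0.00235) and FOXA3 was 1.63-fold lower (−0.70 ± 0.24, adjusted p = 0.0455). The FOXA3 call was lost without any 1 of the 4 arrays (−0.84 to −0.57). FOXA1 differed by −0.34 ± 0.17 (adjusted p = 0.167), and its other probe set gave 0.03 ± 0.14. Within the depleted line from day 3 to day 4, where 19.5% of all genes were called, PRDM1 was 11.6-fold lower (−3.54 ± 0.20, adjusted p = 6.04e-07) and HHEX fell by 2.59 ± 0.36 (adjusted p = 2.50e-04). The other 3 genes were not called there.

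At day 5 the same 4 genes were lower, against 32.6% of all genes called in either direction. HHEX fell by 5.43 ± 0.36 (adjusted p = 3.45e-07) and FOXA2 by 2.41 ± 0.38 (adjusted p = 3.28e-04). PRDM1 was 7.54-fold lower (−2.92 ± 0.20, adjusted p = 3.98e-07). FOXA3 was 1.72-fold lower (−0.79 ± 0.24, adjusted p = 0.0238), and this call too was lost without any 1 of the 4 arrays (−0.82 to −0.75). FOXA1 differed by −0.44 ± 0.17 (adjusted p = 0.0615), and by −0.70 without control day 5 replicate 1. Its other probe set gave 0.08 ± 0.14, and both group means of FOXA1 (2.29 and 2.73) lay below the lower quartile. From day 4 to day 5 within the depleted line none of the 5 genes was called by limma, with 0.0827% of all genes called. Of the 5, PRDM1 alone had an unadjusted p under 0.05: it read higher at day 5 by 1.14 ± 0.20 (adjusted p = 0.0676), with both arrays above both of day 4. Against control day 0, depleted cells at day 5 had PRDM1 still higher by 2.65 ± 0.20 (adjusted p = 2.82e-06; 1.04, 1.41 and 0.38 on 3 of its other probe sets, the last not called), whereas HHEX differed by 0.42 ± 0.36 (95% interval −0.36 to 1.21) and FOXA2 by 0.45 ± 0.38 (−0.38 to 1.28). In that comparison 18.5% of all genes were called, and PRDM1 was the 1 of the 5 among them.

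**Figure D2:**
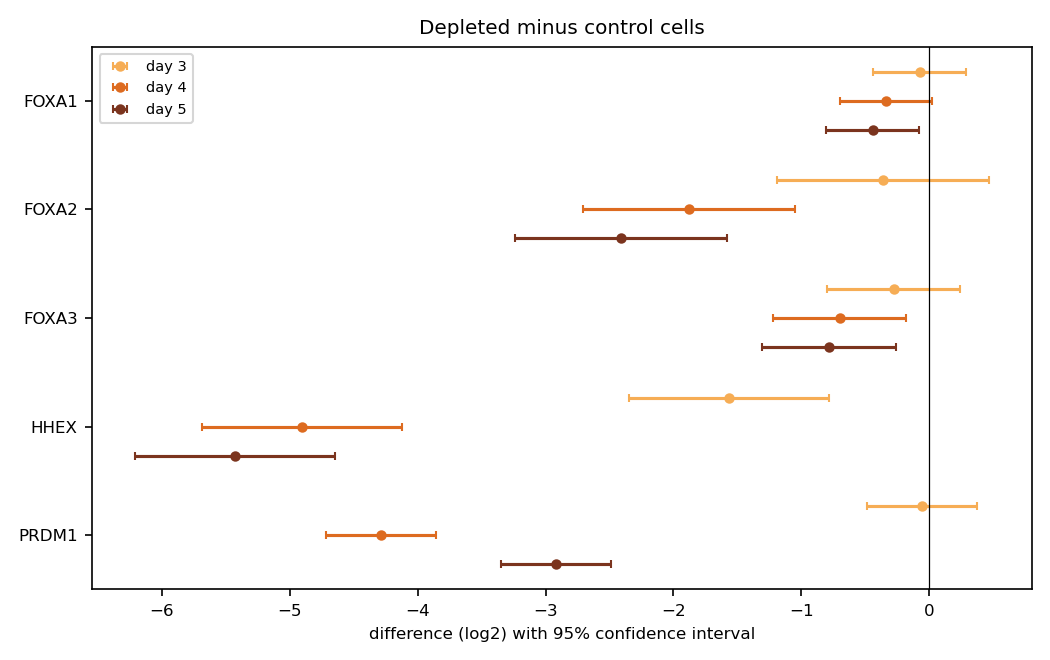
Difference between depleted and control cells (log2, x axis) for the 5 genes (y axis) at days 3, 4 and 5, with 95% confidence intervals from limma on 2 arrays per group. PRDM1 lies at −0.05 at day 3 and at −4.28 at day 4, while HHEX is already lower at day 3 (−1.57).

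Whether the depletion effect differed between days was tested directly, as the difference of the effects. From day 3 to day 4 the effect changed by −4.23 ± 0.28 for PRDM1 (adjusted p = 6.09e-06) and by −3.34 ± 0.51 for HHEX (adjusted p = 8.61e-04), 2 of the 5 genes against 15.3% of all genes. FOXA2 stood at −1.52 ± 0.54 (adjusted p = 0.0805) and passed without control day 4 replicate 1 (−1.96). From day 3 to day 5 it became more negative for PRDM1 (−2.86 ± 0.28), HHEX (−3.86 ± 0.51) and FOXA2 (−2.05 ± 0.54, adjusted p = 0.0192), 3 of the 5 against 17.9%. The FOXA2 difference was lost without control day 3 replicate 1, depleted day 3 replicate 1 or either depleted day 5 array, and was −1.31 without control day 5 replicate 2. FOXA3 (−0.51 ± 0.34) passed without control day 3 replicate 2 (−0.93). Between days 4 and 5 none of the 5 was called by limma, and 0.0938% of all genes were. PRDM1 alone of the 5 had an unadjusted p under 0.05 there, with a difference of 1.37 ± 0.28 (adjusted p = 0.136).

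Markers of other cell states were read beside these falls. Of all genes, 3.75% were called in depleted against control cells at day 3, 28.2% at day 4 and 32.6% at day 5. Of 9 measured pluripotency genes, 0 were higher and 3 lower in depleted than in control cells at day 3 (median −0.47). At day 4, 7 were higher and 0 lower (median 1.35), and at day 5, 6 were higher and 1 lower (median 0.87). The summed log2 level of these 9 genes at day 5 was 84.5 to 84.7 against 75.8 to 78.2, and 89.3 to 93.3 at day 0. At day 5, where 32.6% of all genes were called with a median of 0.04, 2 of 12 mesoderm genes were higher and 1 lower, a smaller share than over all genes (median 0.31, summed levels 66.4 to 67.2 against 55.3 to 57.2). Of 11 extraembryonic endoderm genes 2 were higher and 6 lower at that day (median −0.43, 75.4 to 76.2 against 79.8 to 80.1), and of 7 neuroectoderm genes 3 were higher and 1 lower (median 0.24, 31.1 to 32.1 against 28.5 to 28.6). Of 8 trophoblast and amnion genes and of 8 fibroblast genes, 2 were higher and 1 lower each (medians 0.18 and −0.12). The part of these cells in the results for the 5 genes was not tested, and in bulk RNA fewer cells that express a gene cannot be told apart from less RNA per cell.

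The comparisons of rescue cells asked which of the genes returned when GATA6 was supplied again. All 5 were higher in rescue than in depleted cells at day 5, against 39.5% of all genes called in either direction. They ended at different places relative to control. FOXA2 ended near control, and HHEX and PRDM1 below it. FOXA1, which was not called lower in depleted cells, stood far above control. HHEX read 7.87 and 8.07 in rescue cells, above the depleted (3.68 and 4.01) and below the control arrays (9.31 and 9.24). PRDM1 read 8.62 on both rescue arrays, also between the groups. FOXA2 read 6.16 and 6.20, within the control range of 5.48 to 6.97. FOXA3 read 7.65 and 7.71, above both control arrays. FOXA1 read 6.94 and 6.81, where the other 14 arrays read 1.93 to 2.99.

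Over depleted cells, HHEX rose by 4.13 ± 0.36 (adjusted p = 1.67e-06) and FOXA2 by 2.37 ± 0.38 (adjusted p = 2.71e-04). PRDM1 was 4.61-fold higher (2.20 ± 0.20, adjusted p = 2.16e-06) and FOXA3 2.21-fold higher (1.14 ± 0.24, adjusted p = 0.00196). The PRDM1 rise was smaller on its other probe sets, at 1.67, 0.87 and 0.57 on 3 of them, the last not called (adjusted p = 0.114), and 0.15 on the one that stayed low. FOXA1 rose by 4.59 ± 0.17 (adjusted p = 2.67e-09). All 5 genes were also higher in rescue cells than at control day 0, where 39.6% of all genes were called, by 1.04 (FOXA3) to 4.85 (PRDM1).

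Compared with control cells at day 5, 3 of the 5 genes were called, against 23.3% of all genes. FOXA1 was higher by 4.15 ± 0.17 (adjusted p = 2.87e-08). HHEX was 2.46-fold lower (−1.30 ± 0.36, adjusted p = 0.0200) and PRDM1 1.64-fold lower (−0.71 ± 0.20, adjusted p = 0.0207). Both of these falls lost their call without any 1 of the 4 arrays, and with the rescue arrays taken as 1 sample (adjusted p = 0.0938 and 0.101). FOXA2 differed by −0.04 ± 0.38, with an interval of −0.87 to 0.79, and FOXA3 by 0.36 ± 0.24 (−0.16 to 0.88).

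**Figure D3:**
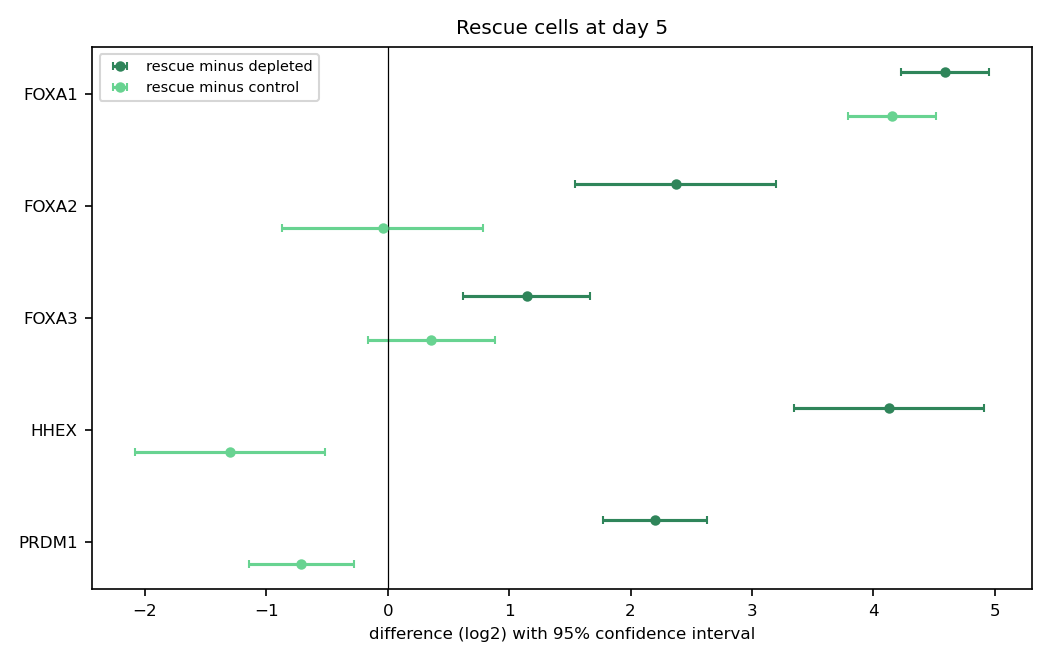
Difference of rescue cells from depleted and from control cells at day 5 (log2, x axis) for the 5 genes (y axis), with 95% confidence intervals from limma on 2 arrays per group. FOXA1 lies at 4.59 and 4.15 in the 2 comparisons, and FOXA2 at −0.04 from control.

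The same marker lists were read in rescue against control cells, where 23.3% of all genes were called with a median of 0.02. Their part in the values above was not tested. Of 9 pluripotency genes 8 were lower, with a summed log2 level of 59.8 to 60.2 against 75.8 to 78.2 in control cells; POU5F1 differed by −3.10 ± 0.17 and PRDM14 by −2.32 ± 0.40. Of 12 mesoderm genes 1 was higher and 3 lower (52.3 to 52.5 against 55.3 to 57.2). Of 11 genes of extraembryonic endoderm none was called higher and 4 were lower (73.7 to 74.1 against 79.8 to 80.1). Smaller shares than over all genes were called among 8 trophoblast and amnion genes, with 0 higher and 1 lower (27.9 to 28.3 against 28.3 to 30.2), and among 7 neuroectoderm genes, with 0 higher and 1 lower (25.01 to 25.08 against 28.5 to 28.6). Finally, of 8 fibroblast genes 2 were higher and 1 lower (34.8 to 35.2 against 33.8 to 36.7).

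The rise of FOXA1 in rescue cells was seen by both of its probe sets. On the second, the rescue arrays read 3.10 and 3.02 and the other 14 arrays 2.15 to 2.67, a difference from control at day 5 of 0.75 ± 0.14 (adjusted p = 0.00229 over all probe sets). The second probe set lay below the lower quartile in all groups, where background limits the size of a difference. PRDM1 had 5 probe sets. One stayed between 2.13 and 2.70 on all arrays with no difference called, and the other 4 differed by −0.06 to 0.22 between depleted and control cells at day 3 and all fell at days 4 and 5, by 2.32 to 4.28 at day 4. The fall of PRDM1 from control to rescue was not called on 2 of those 3 additional probe sets (−0.46 ± 0.25 and −0.50 ± 0.25) and was on the third (−0.99 ± 0.26). FOXA2, FOXA3 and HHEX had 1 probe set each.

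**Figure D4:**
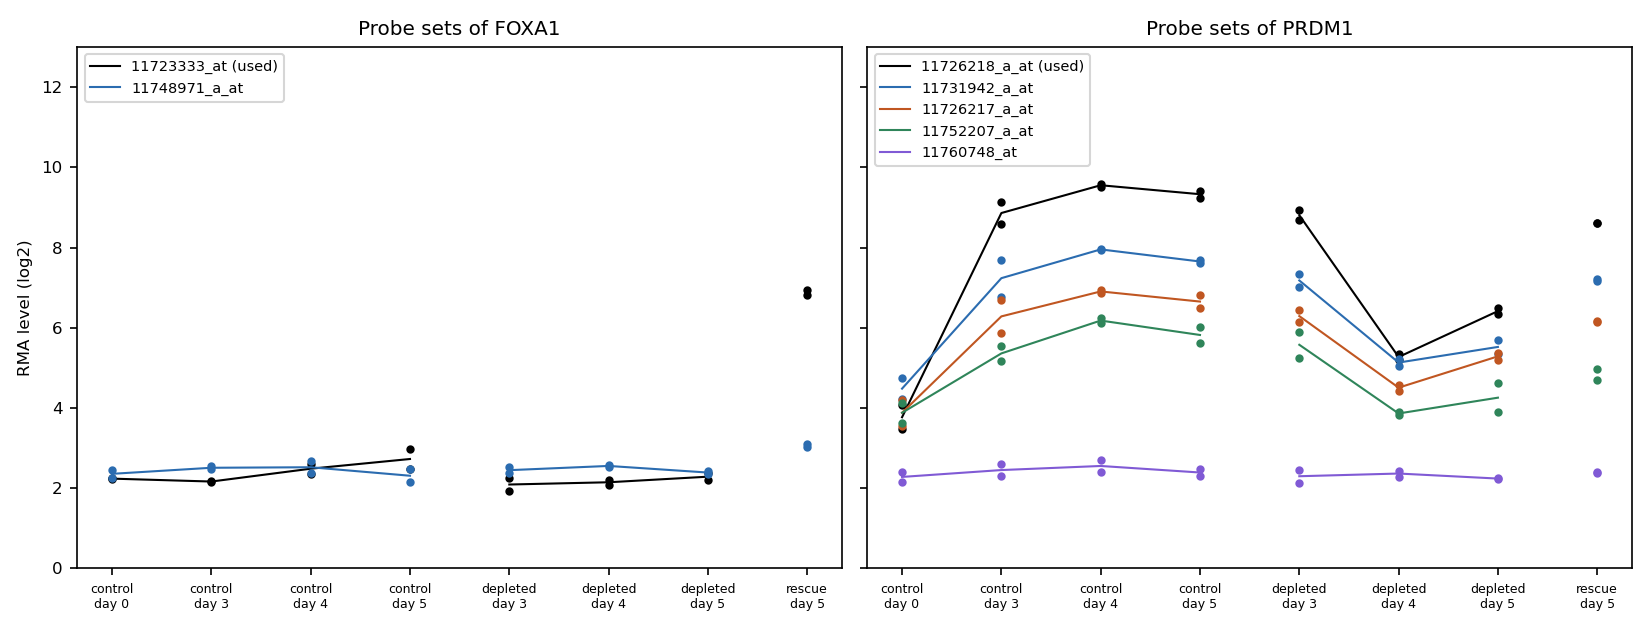
RMA level (log2, y axis) of each probe set of FOXA1 (left) and PRDM1 (right) in the 8 groups (x axis). Points are arrays and lines join the group means of 1 cell line over days; of the 5 PRDM1 probe sets 1 stays between 2.13 and 2.70.

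Ordered by group mean, HHEX fell from control day 5 (9.27) over control days 4 and 3, rescue (7.97) and depleted day 3 (6.77) to depleted days 4 and 5 and control day 0 (3.42). Neighbours overlapped between control days 5 and 4, between control day 3 and rescue, and among the 3 lowest groups. PRDM1 was highest at control day 4 (9.55), followed by control days 5 and 3, depleted day 3 (8.81), rescue (8.62), depleted day 5 (6.41), depleted day 4 (5.27) and control day 0 (3.77), and of these neighbours control and depleted day 3 overlapped. FOXA2 ran from control day 5 (6.23) and rescue (6.18), which overlapped, through control days 4 and 3 and depleted day 3 (4.55) to depleted days 4 and 5 (3.82 and 3.81) and control day 0 (3.37). FOXA3 spanned 1.32 log2 in all, from rescue (7.68) to depleted day 3 (6.36), and FOXA1 was alone above 3 log2 in rescue cells (6.88), with overlaps between most of its other neighbours.

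The genes whose levels followed each factor most closely were taken by Pearson's r over the 16 arrays among genes whose group means spanned at least 1 log2. The arrays share groups, so r is given as a description. Closest to FOXA1 were GALNT16 (r = 0.987), a glycosyltransferase, CLDN3 (0.986), a tight junction claudin, and DPP4 (0.983), a cell surface peptidase. Since these genes were picked for following FOXA1, their excess in rescue over control cells (3.06, 3.30 and 3.26) is a description and was not read as a test. HHEX was followed by MANEA (0.988), a mannosidase, ANKDD1A (0.987) and PDE10A (0.986), a phosphodiesterase, picked in the same way, with differences between depleted and control cells at day 5 of −4.16, −4.18 and −4.45. PRDM1 was followed by ACKR3 (0.982), a chemokine receptor, SOX17 (0.981), an SRY-related endoderm factor, and TMSB10 (0.976), an actin-binding thymosin. Closest to FOXA2 were DUSP4 (0.965), a phosphatase of MAP kinases, NCOA4 (0.963), a cargo receptor for ferritin, and F10 (0.962), the precursor of coagulation factor X, and closest to FOXA3 were ZFYVE1 (0.956), TM7SF2 (0.942), an enzyme of sterol synthesis, and EFCAB14 (0.941). Among the 5 factors themselves HHEX and PRDM1 were the most alike (0.923) and FOXA1 and PRDM1 the least (0.245).

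**Figure D5:**
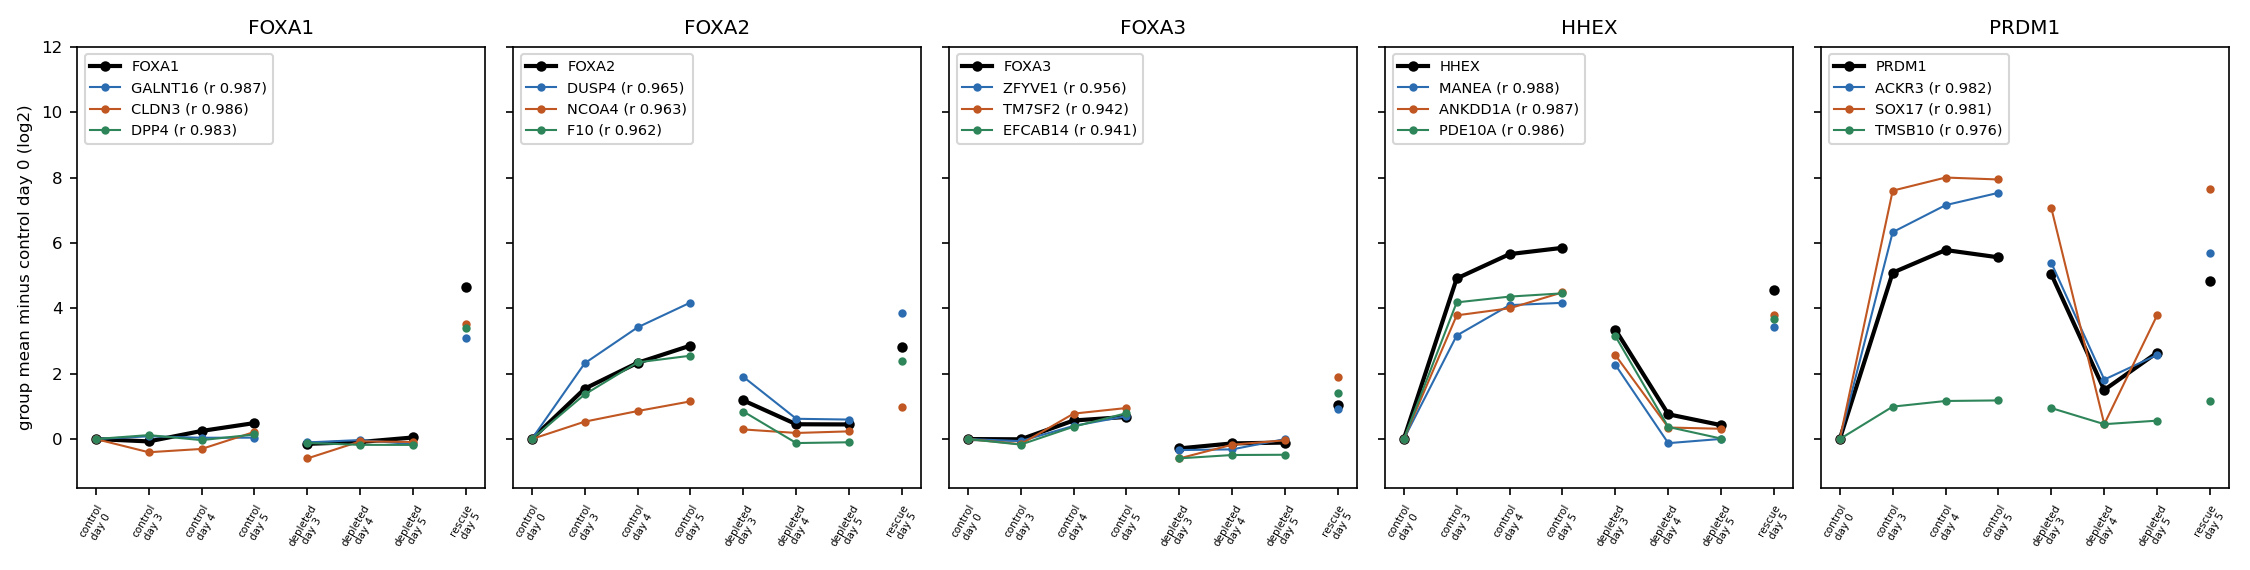
Group mean minus control day 0 (log2, y axis) in the 8 groups (x axis) for each of the 5 genes (black) and the 3 genes most correlated with it over 16 arrays (colours, with Pearson's r). Lines join the days of 1 cell line, and GALNT16, CLDN3 and DPP4 rise with FOXA1 in rescue cells alone.

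The wider endoderm programme was described from lists of known genes. Of 15 measured regulators of early endoderm, 12 were higher at control day 5 than at day 0 (median 5.05 log2, against −0.04 over all genes). Of all genes, 34% were called there in either direction. Depletion at day 3 left 1 of the 15 higher and 0 lower, where 3.75% of all genes were called. At day 5 it left 1 higher and 10 lower, where 32.6% of all genes were called. The median at day 5 was −1.41 against 0.04 over all genes. SOX17 fell by 4.15 ± 0.19 at day 5, the chemokine receptor CXCR4 by 6.11 ± 0.42 and the homeobox factor GSC by 4.37 ± 0.29. In rescue against depleted cells at day 5, 8 of these 15 were higher and 5 lower, where 39.5% of all genes were called. The median there was 0.98 against −0.03 over all genes. In rescue against control cells 0 of these 15 were higher and 8 lower, where 23.3% of all genes were called (median −0.78 against 0.02 over all genes).

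Later factors and targets of the liver and gut held called genes in both directions. Of 13 measured hepatic and gut factors, 3 were higher and 3 lower in depleted than in control cells at day 5, against 32.6% of all genes called (median 0.01 against 0.04 over all genes): HLX, a homeobox factor, fell by 2.29 ± 0.40, while SOX9 rose by 2.37 ± 0.26 and the nuclear receptor NR5A2 by 1.94 ± 0.16. Of 18 genes typical of liver cells, 2 were higher and 2 lower at day 5, a smaller share than the 32.6% over all genes (median 0.08). The apolipoprotein genes APOA2 and APOA1 fell by 7.21 ± 0.57 and 3.63 ± 0.37, and AFP, alpha-fetoprotein, rose by 3.70 ± 0.31. In rescue cells none of these 18 was called higher than in control cells and 3 were lower, a smaller share than the 23.3% over all genes: APOA2 (−4.12 ± 0.57), APOA1 (−2.38 ± 0.37) and AFP (−1.26 ± 0.31).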

How the data were processed

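Biotin-labelled cRNA was made from RNeasy-purified RNA with the 3′ IVT Express kit. Per the methods, the authors applied RMA in Partek Genomics Suite (version not given in the sources used here) and deposited log2 values, 1 per probe set and array. Such values compress differences near background. Of 49395 probe sets, the 44994 that named a single gene were used (1832 named several and 2569 no gene), and for each of 18132 genes the probe set of highest mean level stood for it. Of these genes, 18112 were found in the RefSeq table. The methods describe replicates as independent differentiations, and no 2 arrays held identical values.

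A model of 1 mean per group was fitted to all 16 arrays with limma 3.58.1 in R 4.3.3 (8 residual and 4.58 prior degrees of freedom, two-sided). It was tested on simulated data. With 2 arrays per group, the number of arrays limits the precision. Named genes were the listed factors, GATA6, the 3 genes most correlated with each factor, and from each of 13 gene lists the 3 largest changes called between depleted and control cells at day 5. The factors, lists and tests were chosen with earlier results of these data known. Alternatives were the mean or each other probe set of a gene, leaving out genes below the 25th percentile, cyclic loess, trended or robust moderation, only the groups compared, a replicate block, the rescue arrays as 1 sample, leaving out each array, and the methods' thresholds on the unmoderated test and on the z-score of the change. Gene tables were made with pandas 2.3.3 and numpy 2.4.6 in Python 3.11.15, and figures with matplotlib 3.10.9.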

Additional observations from a re-analysis of the deposited data

Results flagged for a closer look

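The effect of depletion differed between days, by limma's test of the difference itself, for 3 of the 5 factors. From day 3 to day 4 it changed by −3.34 log2 for HHEX and by −4.23 for PRDM1, where 15.3% of all genes were called. From day 3 to day 5 it changed by −3.86 for HHEX, by −2.86 for PRDM1 and by −2.05 for FOXA2, where 17.9% of all genes were called. The FOXA2 result was the least firm: it was lost without any of several single arrays. FOXA2 was also not called by limma from day 3 to day 4 (adjusted p = 0.0805). Each of these effects was more negative at the later day. In the depleted cells of day 3 GATA6 itself stood at 9.76 and 9.90, above its level at days 4 and 5. Whether that level, or a change in the make-up of the cells, bears on these differences was not tested.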

How the results depend on the processing

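Of 1227 values of single genes under the alternatives, 1128 kept their side of the threshold, 79 lost their call, 15 gained one and 5 reversed. A value counted as reversed if its direction turned and it was called in the main fit or under the alternative. Turns of direction with no call in either were counted among the 1128. An example is FOXA1 in depleted against control cells at day 5 (−0.44, and 0.08 on its other probe set). The reversed values were FOXA1 on its other probe set, control day 5 against day 3 (−0.20) and day 0 (−0.047), and PRDM1 on the probe set that stayed low, depleted day 4 against day 3 (0.067), depleted day 5 against control day 0 (−0.041) and the depletion effect of day 5 minus day 3 (0.0027). For other changes below the cause was not tested.

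Of the 5 factors, control day 5 against day 3 called 1 in place of 2 with the mean of all probe sets or without genes below the 25th percentile, and 0 by the methods' thresholds or with only the groups compared. Control day 5 against day 0 called 3 in place of 5 under the latter 2 settings. By the methods' thresholds, depleted against control at day 4 called 2 in place of 4, rescue against depleted 2 in place of 5, rescue against control 1 in place of 3, and rescue against day 0 3 in place of 5. By those thresholds depleted day 5 against day 4 called 1 (with trended moderation also 1), and the effect of day 5 minus day 4 called 1, in place of 0; each was PRDM1. With the rescue arrays as 1 sample, rescue against control called 1. The share of all genes called under the methods' thresholds was not computed, so the counts by those thresholds cannot be set against it.

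Leaving out 1 array at a time gave 2 to 3 factors for control day 3 against day 0, 0 to 2 for day 4 against day 3, 0 to 3 for day 5 against day 3 and 3 to 4 for day 5 against day 0. It gave 0 to 1 for depleted against control at day 3, 3 at day 4 and 3 to 4 at day 5, and 1 for rescue against control. It gave 2 for depleted day 3 against control day 0, and for the effect of day 4 and of day 5 minus day 3, 2 to 3 and 2 to 4.

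Counts over all genes moved by more than 1.5 times too. Depleted against control at day 3 called 680 genes, 161 with only the groups compared and 254 to 943 without 1 array. Rescue against control called 4230, 2085 with the rescue arrays as 1 sample and 2187 to 3352 without 1 array. Control day 5 against day 3 called 2096 (573 with only the groups compared), day 3 against day 0 called 5045 (2402), day 5 against day 0 called 6158 (3912), and day 4 against day 3 called 567 (0). Depleted day 3 and day 5 against control day 0 called 4938 (3233) and 3356 (1785). Depleted day 4 against day 3 called 3531 (1844 to 2513 without 1 array) and the effect of day 4 minus day 3 called 2775 (1690 to 2797). Control day 5 against day 4, depleted day 5 against day 4 and the effect of day 5 minus day 4 called 43, 15 and 17 genes (5 to 182, 1 to 18 and 1 to 75 without 1 array).

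Samples with the same replicate number were not shown to be paired: their deviations correlated at −0.07 to 0.25, and over 0.1 in 4 of 28 pairs of groups. The highest values lay between control days 3 and 4 (0.25) and control days 4 and 5 (0.23), while control days 3 and 5 gave 0.09. A link by replicate within the control line therefore remains possible, and the main model held no term for it. With the replicate number as a block, FOXA1 at control day 5 against day 3 lost its call (adjusted p = 0.0554), FOXA3 gained one there (0.0452), and FOXA2 gained one for the effect of day 4 minus day 3 (0.0468), so that 3 factors were called in place of 2.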

Other observations

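Relatives and partners of the 5 factors were also measured. Of 35 other forkhead genes, none was called by limma at day 3 of depletion, where 3.75% of all genes were called. At day 5, 6 of the 35 were higher and 5 lower in depleted than in control cells, a share close to the 32.6% of all genes called there. FOXD1 rose by 3.66 ± 0.23 and FOXL2 by 1.72 ± 0.18, whereas FOXQ1 fell by 4.55 ± 0.77. In rescue cells FOXD1 was lower than in depleted cells (−3.59 ± 0.23) and differed from control cells by 0.06 ± 0.23. Of 14 other PRDM genes, 1 was higher and 0 lower in depleted cells at day 5, well under the share of all genes. It was PRDM14 (1.27 ± 0.40), a zinc finger factor of pluripotent cells, which was lower in rescue than in control cells (−2.32 ± 0.40).

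A list of 10 genes covered corepressor families and enzymes that work with such repressors. Of these 10 genes, 1 was higher and 3 lower in depleted cells at day 5, where 32.6% of all genes were called. The Groucho-type corepressor TLE2 fell by 1.06 ± 0.20 at day 3 (adjusted p = 0.0101) and by 2.13 ± 0.20 at day 5, and was higher in rescue than in control cells by 0.74 ± 0.20. TLE5 fell by 1.00 ± 0.14 at day 5, and PRMT5, an arginine methyltransferase, rose by 0.63 ± 0.15. Of 8 genes of primordial germ cells, in which PRDM1 also acts, 4 were higher and 1 lower at day 5 (median 0.51 against 0.04 over all genes): TFAP2C rose by 2.80 ± 0.34 and stayed higher than control in rescue cells (2.98 ± 0.34), while the receptor gene KIT fell by 3.55 ± 0.25.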
